A study of Gallus gallus with 40 samples.

Results

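The genes described here lie on the chicken Z chromosome outside the stretch from 20 to 30 Mb. They were chosen by position alone. A gene was taken when its first exon base in the deposited annotation lay below 20 Mb or at 30 Mb and beyond, and 7 named genes and 6 families of symbols (respiratory chain subunits, ribosomal proteins and amino acid transporters), 17 genes in all, were left out. This gave 1062 of the 26152 gene models in the table and of the 1245 on the Z. Of these, 331 lay below 20 Mb and 731 from 30 Mb on. They comprised 687 protein-coding genes, 245 long non-coding RNA (lncRNA) genes, 93 microRNA genes and smaller classes, and 554 carried a symbol.

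In birds the male is the homogametic sex, with a pair of Z chromosomes, and the female carries a single Z and a smaller, gene-poor W. Birds are known to lack a mechanism that equalises the whole Z between the sexes, so that many Z genes are expressed at a higher level in males, while others are close to equal. A few Z genes keep a closely related partner on the W from the time when the pair was still an ordinary autosome.

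RNA was sequenced from the chorioallantoic membrane, the vascularised extraembryonic membrane that serves gas exchange, calcium uptake and acid-base balance in the egg. Eggs of the Ross 308 broiler line were opened after 11 or 15 days of incubation, and embryos were sexed from a piece of neck tissue. The 4 groups were day 11 females, day 11 males, day 15 females and day 15 males, each with 10 embryos and 1 library per embryo, and no treatment was applied. All groups shared line and storage, and incubation apart from its length, and different embryos were used at each day.

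Depth implied by the values was 28.3 to 49.2 M reads per library. Genes of the W summed to 4.2 to 13.8 FPKM (fragments per kilobase of exon and per M reads) in males and 1224 to 2181 FPKM in females, so each library matched its sex label. Epithelial, endothelial and red cell markers were present in all groups, and summed leukocyte markers stayed at or below 44.4 FPKM. Of the 4 red cell markers, HBBA stayed at or below 0.24 FPKM, so that the red cell sums rested on HBA1, HBAD and HBE1. In bulk RNA of this kind, fewer cells of a type and less RNA per cell cannot be told apart. Day 15 female replicate 83 stood apart. Its 4 liver markers summed to 816 FPKM, against at most 191 FPKM in the other day 15 females. Nearly all of this sum was APOA1 (813 FPKM), while FGB, FGA and TTR stayed at or below 4.26 FPKM in all groups. Replicate 83 also had the lowest endothelial sum of its group (300 FPKM). For CTSV, DAB2 and SNORD58, results are given with and without it. Other genes in which it was the highest or lowest library, such as SLC12A2, are given with it only. At day 11, embryos numbered 2 to 20 and those numbered 22 to 48 differed in the level of Z genes and of autosomal genes, as given below.

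Every ratio below is a log2 difference of male minus female on the scale log2(scaled FPKM + 0.1), so that 0 means equal levels and 1 means a level 2-fold higher in males, as the copy number would give. A gene was called where the limma p-value, adjusted over all 15880 genes tested, was below 0.05. Of the 1062 genes, 551 had at least 0.5 FPKM in at least 10 libraries and were tested (489 protein-coding, 35 lncRNA, 13 microRNA and 10 small nucleolar RNA genes among them). Fewer would have passed on the 20 female libraries alone (516 genes) than on the 20 male libraries alone (536 genes). More low genes thus entered through males than through females. The other 511 were too low to test, 135 of them at 0 in every library.

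At day 11, 314 of the 551 tested Z genes were higher in males (57%), against 2.55% of all genes tested. At day 15 the count was 308 (55.9%), against 2.58%. Genes higher in females numbered 0 at day 11 (background 0.932%) and 2 at day 15 (background 0.919%), and 280 Z genes were higher in males at both days (background 2.2%). With the days averaged, 378 Z genes were higher in males (background 3.41%) and 4 in females (background 1.42%). Among 13950 autosomal genes, 12 and 27 were higher in males at the single days, and 62 and 50 were higher in females. Every male library lay above every female library for 165 Z genes at day 11 (background 1.27%) and 166 at day 15 (background 1.28%).

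The median ratio was 0.53 at day 11, a 1.44-fold higher level in males, and 0.50 at day 15, a 1.41-fold higher level. The middle 50% of genes ran from 0.29 to 0.76 at day 11 and from 0.22 to 0.72 at day 15. Autosomal genes had medians of -0.02 at both days. The ratios of Z genes were also more widely spread, with SDs of 0.33 and 0.40 against 0.19 and 0.21 for autosomal genes. The distribution was a single broad hump between equal and 2-fold, with no separate peak at either end.

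**Figure D1:**
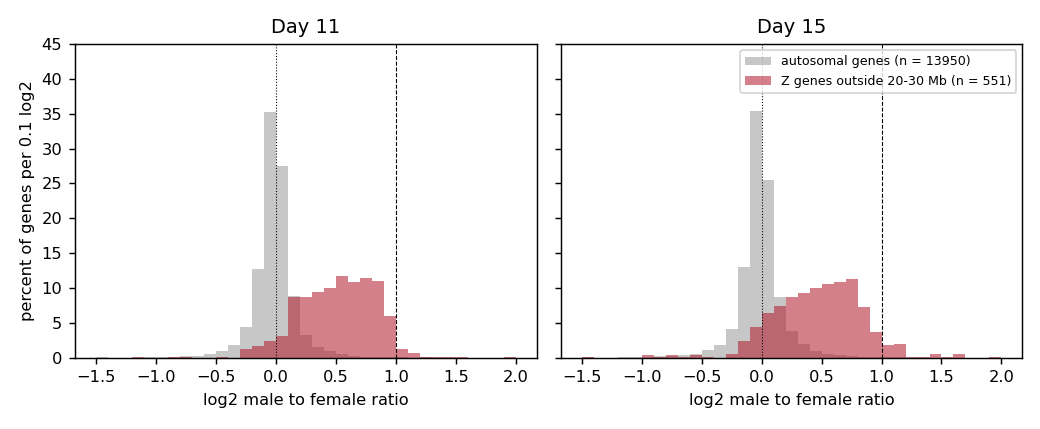
Share of genes (percent per 0.1 log2 units) by log2 male to female ratio at day 11 and day 15, for the 551 tested Z genes outside 20 to 30 Mb (red) and 13950 autosomal genes (grey). Dotted lines mark equal levels and dashed lines a 2-fold higher level in males; values beyond the axis are drawn in the outermost bins. The autosomal genes centre on 0, and the Z genes form 1 broad hump with medians of 0.53 and 0.50.

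Each gene was also tested against the 2-fold ratio. At day 11, 411 of the 551 lay below 2-fold, and at day 15 it was 435. The background, mostly autosomal genes at equal levels, was 94.9% at both days. These counts depend on the constant added to the FPKM. With 1 in place of 0.1 they were 507 and 510. Combining both tests, 229 Z genes at day 11 and 233 at day 15 were higher in males and also below 2-fold, with median ratios of 0.59 in both cases. A further 84 and 72 were higher in males and not told from 2-fold, with medians of 0.89 and 0.92. Another 182 and 200 were below 2-fold and not called different between the sexes, with medians of 0.19 and 0.14. The remaining 55 and 41 genes that no test called had a median standard error (SE) of 0.33 and 0.34, which leaves room for either. Of all genes tested, 2.55% and 2.58% were higher in males, and the combined classes were not counted over all genes.

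Many single genes could be placed to one side of the middle of the range. The 95% interval of the ratio lay wholly below 0.5 for 119 genes at day 11 and 153 at day 15, and at both days for 18.5% of the 551. It lay wholly above 0.5 for 141 and 133 genes, and at both days for 19.8%. No gene lay wholly below 0.5 at one day and wholly above it at the other (0 of 551). These intervals are per gene and not adjusted over genes, and 0.5 lies near the median of the 551. Estimated ratios of at least 0.5 were found in 54.1% of the 551 at day 11 and 49.2% at day 15. Among autosomal genes the shares were 1.39% and 1.55%. Intervals were not counted over all genes tested.

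The ratios were alike at the 2 days, although the embryos were different. Across the 551 genes, the day 11 and day 15 ratios had a Pearson r of 0.75 and a Spearman rho of 0.82, against 0.13 and 0.23 for the 13950 autosomal genes. In the 275 Z genes above the median level the values were 0.89 and 0.92. These are descriptions across genes, which share libraries within each day and are not independent replicates.

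**Figure D2:**
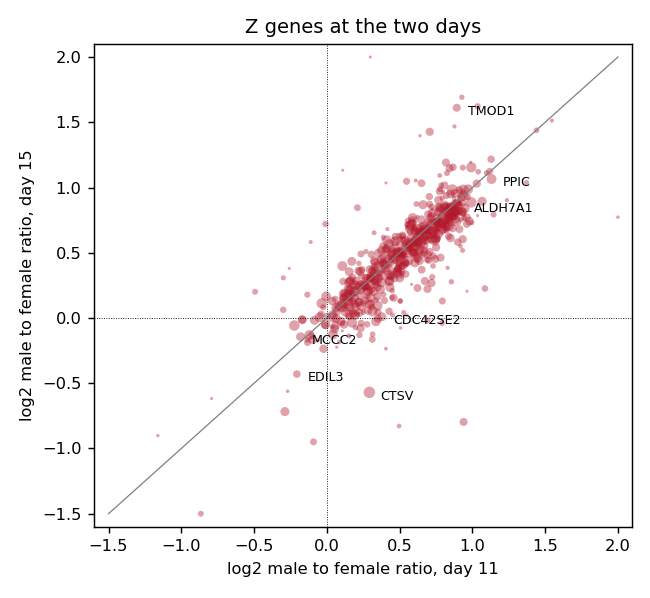
Log2 male to female ratio of each of the 551 tested Z genes at day 11 (x axis) and day 15 (y axis); point area grows with the mean level, the grey line marks equal ratios at both days, and values beyond -1.5 or 2 are drawn at the edge. Most genes lie along the line, TMOD1 lies above it with ratios of 0.89 and 1.61, and CTSV below it with 0.29 and -0.57, the latter -0.14 without day 15 female replicate 83.

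Library by library the sexes did not overlap. For each library, the median deviation of the 551 genes from the mean of the same-day females was taken, less the same median over autosomal genes. It ran from -0.09 to 0.07 in day 11 females (median 0.02) and from 0.44 to 0.62 in day 11 males (median 0.53). At day 15 it ran from -0.05 to 0.10 in females (median 0.00) and from 0.40 to 0.56 in males (median 0.50). The lowest male thus lay well above the highest female at each day.

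The day 11 males formed a lower and a higher set along their embryo numbers. The 5 males numbered 2 to 20 lay between 0.44 and 0.47, and the 5 numbered 22 to 48 between 0.59 and 0.62. Females moved the same way, with medians of -0.05 in the 4 numbered 2 to 20 and 0.02 in the 6 numbered 22 to 48. Fitted within each range of numbers, the median male to female ratio was 0.53 and 0.58, close to the pooled 0.53. With embryo number as a covariate, 329 genes at day 11 (background 2.71%) and 326 at day 15 (background 2.84%) were higher in males. Among them were the 314 and 308 called without it. What the numbers stand for is not given in the sources used here.

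The level of the Z relative to autosomes was compared within each library as the median FPKM of the tested Z genes over that of the tested autosomal genes. This quotient was 0.541 to 0.610 in day 11 females and 0.559 to 0.634 in day 15 females. In males it was 0.819 to 0.930 at day 11 and 0.816 to 0.892 at day 15. The typical Z gene thus lay below the typical autosomal gene in every library, and further below in females.

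**Figure D3:**
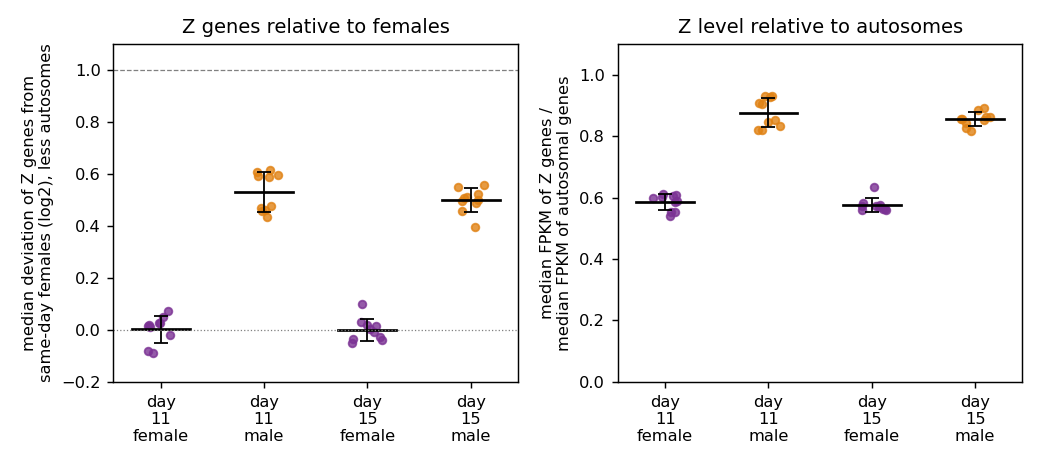
Left, median log2 deviation of the 551 tested Z genes from same-day females, less that of autosomal genes, in each library; dashed and dotted lines mark 1 and 0. Right, median FPKM of Z genes divided by median FPKM of autosomal genes. Each point is 1 library, bars are the mean and SD of 10 libraries per group, and the males lie above all females of the same day in both panels.

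The genes with the highest ratios included enzymes, organelle genes and cytoskeletal genes. ALDH7A1 (chrZ:79146009-79164153, GRCg6a), an aldehyde dehydrogenase of lysine breakdown, gave 70.9, 77.9 and 87.2 FPKM as lowest, median and highest value in day 11 females and 136, 149 and 160 FPKM in day 11 males. At day 15 the values were 68.5, 74 and 83.2 FPKM in females and 137, 147 and 168 FPKM in males. The sexes did not overlap at either day. Its ratios of 0.94 and 0.98 (SE 0.04; limma adjusted p = 2.8e-24 and 5.15e-25) were not told from 2-fold (adjusted p = 0.092 and 0.62 against 2-fold).

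PPIC (chrZ:81573781-81579815), which encodes cyclophilin C, a prolyl isomerase that helps secreted proteins fold, gave 27.9, 35.6 and 38.5 FPKM in day 11 females and 62.5, 70.2 and 92.2 FPKM in day 11 males. At day 15 it gave 20.9, 25 and 32.9 FPKM in females and 43.4, 51.0 and 72.3 FPKM in males. The ratios were 1.13 and 1.07 (SE 0.11; adjusted p = 5.2e-11 and 2.8e-10), with no overlap between the sexes. SRFBP1 (chrZ:81135284-81191167), a gene for a protein that binds serum response factor, had ratios of 1.03 at both days (SE 0.08). FAM172A had ratios of 1.07 and 0.89 (SE 0.05), the second of them below 2-fold (adjusted p = 0.048 against 2-fold). MRPL50, a protein of the large mitochondrial ribosomal subunit, had ratios of 0.97 and 0.99 (SE 0.09).

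TMC1 and CHRNA6 were low in level and higher in males at both days. TMC1, a channel gene of sensory hair cells, gave 0.683, 0.950 and 1.18 FPKM in day 11 females and 1.33, 2.32 and 2.87 FPKM in day 11 males, with ratios of 1.1 and 1.11 (SE 0.15; adjusted p = 7.6e-07 and 6.2e-07). At day 15 it gave 0.410, 0.725 and 1.18 FPKM in females and 1.01, 1.78 and 2.23 FPKM in males, which overlapped. CHRNA6, a nicotinic acetylcholine receptor subunit, gave 0.536, 1.33 and 2.08 FPKM in day 15 females and 2.36, 2.99 and 4.18 FPKM in day 15 males, with ratios of 1.04 and 1.12 (SE 0.24; adjusted p = 0.0028 and 0.0011). At day 11 it gave 0.114, 0.661 and 1.06 FPKM in females and 0.717, 1.35 and 1.5 FPKM in males, which overlapped. Neither was told from 2-fold.

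TMOD1 (chrZ:70995461-71015584), whose product caps the slow-growing ends of actin filaments, also in the red cell membrane skeleton, was the only one of the 551 genes whose ratio differed between the days (background 0.0252%). It gave 5.31, 7.09 and 8.69 FPKM in day 11 females and 11.5, 12.7 and 14.6 FPKM in day 11 males. At day 15 females had fallen to 3.24, 3.77 and 4.23 FPKM and males gave 9.07, 12.6 and 15.1 FPKM. No male library overlapped a female library, and the median in males was nearly the same at both days. The ratio was 0.89 at day 11 and 1.61 at day 15 (SE 0.09 each), and the change of 0.72 (SE 0.12) had an adjusted p of 0.0045. The day 15 ratio was above 2-fold (adjusted p = 1.9e-08 against 2-fold). The 4 red cell globin genes summed to 15752 to 38093 FPKM in day 15 females (median 24888), nearly all of it HBA1, HBAD and HBE1. In day 15 males they summed to 11414 to 47463 FPKM (median 18685), with broad overlap. Their part in the TMOD1 ratio was not tested.

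TMOD1 lay in a short stretch in which several ratios were high, described here after its values were seen. Of 12 tested genes between 70.86 and 71.07 Mb, 8 were higher in males at day 11 and 9 at day 15, with medians of 0.68 and 0.94. The share of the 551 genes was 57% and 55.9%, and that of all genes 2.55% and 2.58%. The microRNA gene gga-mir-1583, within the stretch, gave 2.53, 5.14 and 10.7 FPKM in day 15 females and 8.94, 14.4 and 19.3 FPKM in day 15 males. Its ratio was 0.71 (adjusted p = 0.027) at day 11 and 1.43 (adjusted p = 5.5e-07) at day 15 (SE 0.20). The change of this ratio between the days, 0.72 (SE 0.28), was not called. NCBP1, the larger subunit of the nuclear cap-binding complex, also lay there and had ratios of 0.26 and 0.25.

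Besides TMOD1 and gga-mir-1583, the genes above 2-fold were gga-mir-1756a at day 15 and the lncRNA gene ENSGALG00000052282 at day 11. ENSGALG00000052282 gave 0.312, 0.639 and 1.22 FPKM in day 11 females and 1.23, 2.13 and 2.90 FPKM in day 11 males, with a ratio of 1.44 at each day (SE 0.21). The ratio of 2.45 of gga-mir-1756a had an SE of 0.70 and rested on a gene with a median of 0 FPKM in females of both days.

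At the other end, the genes with the lowest ratios included secreted and metabolic genes, most of them variable within groups. MCCC2 (chrZ:73305265-73341429), a subunit of the carboxylase of leucine breakdown, was the steadiest of them. It gave 18.5, 19.5 and 20.9 FPKM in day 11 females and 13.8, 17.6 and 20.6 FPKM in day 11 males. At day 15 it gave 18.3, 20.5 and 22.3 FPKM in females and 16.4, 18.5 and 22 FPKM in males. The groups overlapped, and neither day alone passed the test (ratios -0.18 and -0.14, SE 0.06, adjusted p = 0.10 and 0.29), though day 11 did with embryo number as a covariate (adjusted p = 0.046). Averaged over days the level was lower in males (-0.16, SE 0.04, adjusted p = 0.010), and it was below 2-fold at both days (adjusted p = 4.1e-21 and 1.0e-20).

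OXCT1, the enzyme that activates ketone bodies, was among the genes closest to equal. It gave 67.7, 84.0 and 91.8 FPKM in day 11 females and 67.3, 78.8 and 89.8 FPKM in day 11 males, with ratios of -0.03 and 0.11 (SE 0.06; adjusted p = 0.97 and 0.57) that were below 2-fold at both days. GHR, the growth hormone receptor, had ratios of 0.07 and -0.00 (SE 0.11), and HMGCS1, an early enzyme of sterol synthesis that overlaps NIM1K on the other strand, had -0.02 and -0.24 (SE 0.10). None of these 3 was called, and the day 15 sign of GHR changed with the scaling.

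CTSV, a lysosomal protease, gave 146, 176 and 3334 FPKM in day 15 females and 129, 151 and 296 FPKM in day 15 males. Its day 15 ratio of -0.57 (SE 0.35) became -0.14 without replicate 83.

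EDIL3, a secreted integrin ligand, had ratios of -0.21 and -0.43 (SE 0.20). ESM1, a proteoglycan of activated endothelium, had -0.13 and -0.19 (SE 0.24). AQP3, a water and glycerol channel, had -0.22 and -0.06 (SE 0.19), and MAN2A1, a mannosidase of the Golgi, had -0.10 and -0.17 (SE 0.13). None was called, and all 4 were below 2-fold at both days.

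The 2 genes higher in females at day 15 had no symbol. The lncRNA gene ENSGALG00000044797 gave 3.20, 3.50 and 6.86 FPKM in day 15 females and 1.43, 1.89 and 2.99 FPKM in day 15 males, without overlap (ratio -0.95, SE 0.15, adjusted p = 1.5e-05). Its day 11 ratio was -0.09 (SE 0.15). The protein-coding ENSGALG00000046715 gave 0.860, 3.58 and 7.57 FPKM in females and 0, 0.443 and 6.44 FPKM in males at day 15, which overlapped (ratio -2.49, SE 0.64, adjusted p = 0.012). Averaged over the days, MCCC2 and OSTF1 joined them, the latter, which overlaps NMRK1 on the other strand, with -0.12 (SE 0.04, adjusted p = 0.029).

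Among the 6 most abundant named genes the ratios ranged from below 0 to 0.84. TXN, the redox protein thioredoxin, gave 334, 377 and 482 FPKM in day 11 females and 579, 705 and 814 FPKM in day 11 males (ratios 0.83 and 0.71, SE 0.08, adjusted p = 1.2e-10 and 8.5e-09). ANXA1, a calcium-dependent membrane-binding protein, gave 111, 187 and 246 FPKM in day 11 females and 248, 335 and 503 FPKM in day 11 males (ratios 0.84 and 0.82, SE 0.16). Neither gene overlapped between the sexes at day 11, and ANXA1 overlapped at day 15. TPM2, a tropomyosin of muscle, had ratios of 0.61 and 0.57 (SE 0.07), NREP, a small protein of wound-healing fibroblasts, 0.68 and 0.64 (SE 0.10), and CLTA, a clathrin light chain, 0.78 and 0.67 (SE 0.08). All 5 of these were higher in males at both days, and CTSV was not called at either.

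The median ratio showed no steady trend with level. In 4 classes of rising mean level, bounded at 2.70, 7.81 and 17.3 FPKM, the day 11 medians were 0.52, 0.52, 0.61 and 0.48 and the day 15 medians 0.49, 0.49, 0.52 and 0.44. For the protein-coding genes alone (98, 126, 129 and 136 genes) the medians were 0.46, 0.51, 0.59 and 0.45 at day 11 and 0.33, 0.48, 0.51 and 0.43 at day 15, so that their lowest class had the lowest day 15 median. The Spearman rho of the ratio with mean level was -0.03 at day 11 and -0.01 at day 15 (551 genes). What did change was the number of calls at day 11. It was 32 of 138 genes in the lowest class, and 83 of 138, 104 of 137 and 95 of 138 in the next classes. The median SE fell from 0.24 to 0.07. Of autosomal genes in the same level ranges, 6 of 3105, 2 of 2606, 2 of 3193 and 2 of 5046 were higher in males. In the highest class the SD of the day 11 ratios was 0.32, against 0.09 for 5046 autosomal genes of the same level range. In the lowest class it was 0.45, against 0.34 for 3105 autosomal genes, so that more of the spread there was also seen off the Z.

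The ratio differed with gene type and, to a small degree, went with length. Protein-coding genes had medians of 0.51 and 0.47, and the 35 lncRNA genes had 0.71 and 0.75. The lncRNA genes were low in level (median 1.33 FPKM, median SE 0.21), and 12 and 16 of them were higher in males. The 25 small RNA genes, 62 to 175 bases long, had medians of 0.82 and 0.94 with a median SE of 0.36. Of these, 6 and 9 were higher in males, against 57% and 55.9% of the 551 genes and 2.55% and 2.58% of all genes tested. Their values are reads over the annotated gene, and the form of the RNA they came from was not tested. One of 4 tested copies of SNORD58 (chrZ:1081141-1081208), a guide of ribosomal RNA methylation, had ratios of 1.13 and 1.22 (SE 0.36), called at day 15 (adjusted p = 0.044) but not without a filter, without trend and robust moderation, or without replicate 83 (adjusted p = 0.063, 0.052 and 0.081). The rho of the ratio with exonic length was -0.21 at both days, over all 551 genes with the short small RNA genes among them.

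Along the chromosome, genes with high and low ratios were mixed. In bins of 5 Mb the day 11 median was lowest from 15 to 20 Mb (0.42, 34 genes) and highest from 60 to 65 Mb (0.77, 30 genes). The day 15 median ran from 0.34 between 30 and 35 Mb (33 genes) to 0.74 between 60 and 65 Mb. The end of the chromosome from 80 Mb on, which holds PPIC, SRFBP1, SNX2 and SNX24, had medians of 0.72 and 0.73. Of its 22 tested genes, 17 and 19 were higher in males. The shares of the 551 genes were 57% and 55.9%, and those of all genes tested 2.55% and 2.58%. Genes below 20 Mb had medians of 0.49 and 0.42 (199 genes), and those from 30 Mb on had 0.57 and 0.52 (352 genes).

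In the omitted stretch the medians were lower toward its far end. Its genes from 20 to 25 Mb had medians of 0.46 and 0.38 (68 genes), within the range of the outer bins, and those from 25 to 30 Mb had 0.11 and 0.01 (40 genes). Next to the limits, DIMT1 and IPO11 at 19.48 and 19.49 Mb had day 11 ratios of 0.67 and 0.54, and RNF180 and RGS7BP just inside at 20.05 and 20.16 Mb had 0.01 and 0.48. Before 30 Mb, KDM4C and PTPRD at 28.09 and 28.78 Mb had -0.15 and 0.62, and beyond it LURAP1L and MPDZ at 30.77 and 30.96 Mb had 0.26 and 0.50.

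Neighbouring genes resembled each other little. The rho between the ratios of adjacent tested genes was 0.06 and -0.00 below 20 Mb at the 2 days (198 pairs) and 0.13 and 0.15 from 30 Mb on (351 pairs). It was 0.09 and 0.13 for autosomal neighbours and 0.35 and 0.37 between 20 and 30 Mb (107 pairs). KIF2A, a motor that takes microtubules apart, and DIMT1, a ribosomal RNA methylase, lie side by side. KIF2A begins at 19.42 Mb, and had ratios of 0.16 and 0.09 (SE 0.05; adjusted p = 0.081 and 0.62), while DIMT1 had 0.67 and 0.55 (SE 0.08; adjusted p = 7.7e-08 and 5.1e-06). The day 11 ratio of KIF2A passed the test without scaling and with scaling from numbered chromosomes (adjusted p = 0.043 and 0.039).

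Of 523 running windows of 15 tested genes, the lowest were overlapping windows with the same medians. The window from TMED7 to PGGT1B (73.20 to 79.01 Mb) was 1 of these, with medians of 0.12 and 0.09. In it, 3 of 15 genes were higher in males at each day. The shares of the 551 genes were 57% and 55.9%, and those of all genes tested 2.55% and 2.58%. The window was picked for its values, and so no test applies to it. It holds MCCC2, SMN, an assembly factor of splicing particles, with ratios of 0.16 and 0.17, and BDP1, a factor of RNA polymerase III, with 0.12 and 0.10. The cell cycle inhibitors CDKN2A and CDKN2B had ratios of -0.02 (SE 0.26) and -0.27 (SE 0.41) at day 11, neither called. Both were low in level, with mean log2 levels of 0.84 and -1.05. In the same window MTAP, the enzyme that salvages methylthioadenosine, had ratios of 0.72 and 0.80. On the other side of the omitted stretch, the window from SNORD72 to FGF10 (12.92 to 13.97 Mb) was also low, with medians of 0.19 and 0.11. The highest median of the day-averaged ratio, 0.82, was shared by overlapping windows. Among them were the one from FAM172A (58.30 to 61.44 Mb, medians 0.80 and 0.75) and the one from CETN3 to ATG10 (59.94 to 63.58 Mb, medians 0.76 at both days). Another, from LYSMD3 to gga-mir-1756a (59.89 to 63.00 Mb), had medians of 0.61 and 0.76. In it, 8 and 11 of 15 genes were higher in males, and EDIL3 had ratios of -0.21 and -0.43.

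**Figure D4:**
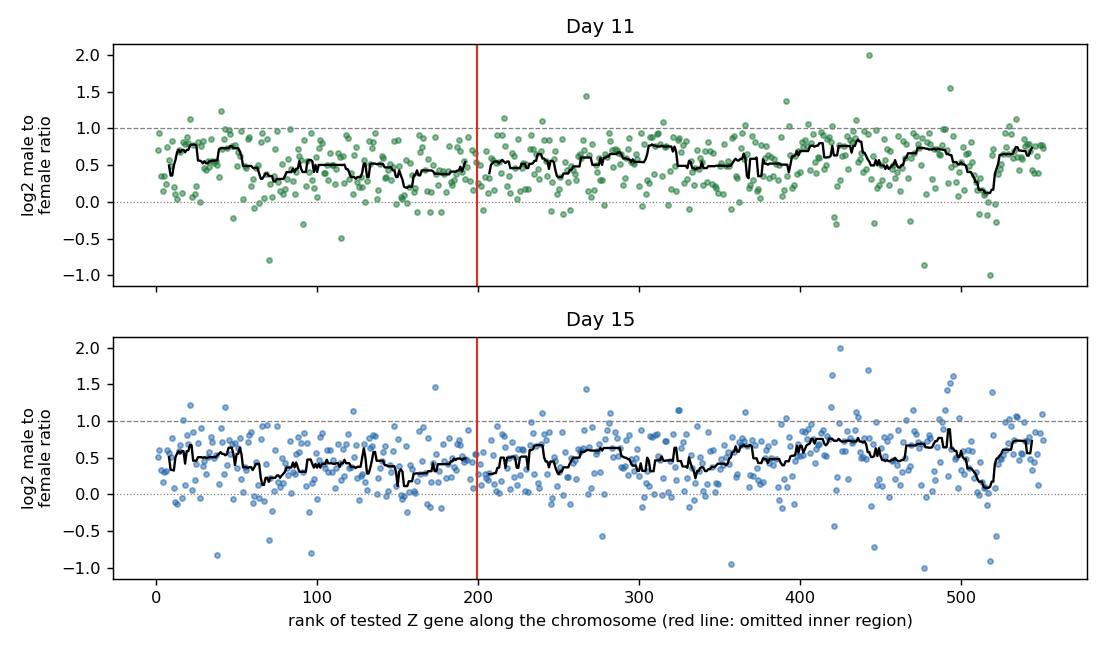
Log2 male to female ratio of the 551 tested Z genes in their order along the chromosome (x axis, rank), at day 11 (top) and day 15 (bottom). The black line is the running median of 15 genes, the red line marks the omitted inner stretch, and ratios beyond -1 or 2 are drawn at the edge. High and low ratios are mixed throughout. The running median dips to 0.12 and 0.09 near the right end, and to 0.19 and 0.11 in the window from 12.92 to 13.97 Mb.

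By function, 12 lists of genes with known roles on the Z differed in their medians, with genes of each list spread over much of the range. These lists are described by counts and medians only, and some genes stand on more than 1 list. For comparison, the medians over all 551 genes were 0.53 and 0.50 and over all 15880 genes tested -0.01 at both days. Of the 551 genes, 57% and 55.9% were higher in males, and of all genes tested 2.55% and 2.58%.

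Cell cycle and DNA repair genes had the highest medians (0.74 and 0.67), and 19 of 23 were higher in males at each day. FANCG, of the complex that repairs DNA crosslinks, gave 2.95, 3.39 and 4.10 FPKM in day 11 females and 6.04, 6.63 and 7.93 FPKM in day 11 males, with ratios of 0.97 and 0.93 (SE 0.08; adjusted p = 2.4e-13 and 8.5e-13). PLK2, a stress-responsive polo-like kinase, had ratios of 0.56 and 0.44 (SE 0.08). Of the 23 genes, 16 were lower at day 15 than at day 11, against 27.4% of the 551 genes and 29.3% of all genes tested. SMC2, a condensin subunit taken from this list after its values were seen, gave 21.1, 27.1 and 29.2 FPKM in day 11 females and 40.4, 49.8 and 56.3 FPKM in day 11 males. At day 15 it gave 4.62, 8.66 and 10.4 FPKM in females and 10.3, 15.0 and 19.7 FPKM in males. Its level fell by 1.66 on the log2 scale (SE 0.08, adjusted p = 3.4e-21) while its ratio was 0.89 and 0.88.

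Sterol and lipid genes divided into a high and a low set (medians 0.67 and 0.59, with 6 and 7 of 11 higher in males). ACAA2, a mitochondrial thiolase of fatty acid breakdown, gave 46.1, 51.9 and 56.7 FPKM in day 11 females and 75.1, 80.9 and 89.7 FPKM in day 11 males, with ratios of 0.67 at both days (SE 0.05). HSD17B4, a peroxisomal enzyme of the same process, had ratios of 0.74 and 0.59 (SE 0.05), and PLAA, an activator of phospholipase A2, had 0.79 and 0.72 (SE 0.04). All 3 lay below 2-fold at both days and did not overlap between the sexes. HMGCS1, described above, was the lowest of this list.

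RNA processing and translation genes had medians of 0.67 and 0.55, with 7 and 5 of 9 higher in males. MRPS30, of the mitochondrial ribosome, gave 14.8, 18.5 and 20.1 FPKM in day 11 females and 30.7, 34.7 and 36.6 FPKM in day 11 males, with ratios of 0.90 and 0.86 (SE 0.05; adjusted p = 4.5e-18 and 2.5e-17). MRPL17 had ratios of 0.81 and 0.84 (SE 0.11). PAIP1, a partner of the poly(A)-binding protein, was at the other end with 32.4, 40.8 and 44.5 FPKM in day 11 females and 36.7, 44 and 48.4 FPKM in day 11 males, which overlapped. Its ratios were 0.13 and 0.05 (SE 0.05; adjusted p = 0.23 and 0.88), below 2-fold at both days.

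The list of mitochondrial enzymes and carriers had the lowest medians, 0.18 and 0.19, with 5 and 6 of 12 higher in males. At day 15 the next list was very close. This list split widely, since it holds ALDH7A1 and MRPS30 as well as OXCT1 and MCCC2. Its medians depend on the genes chosen for it. It holds RMI1 (0.84 and 0.63), also on the cell cycle and DNA repair list, and ACO1 (0.08 and 0.09), the cytosolic aconitase. It leaves out ACAA2 (0.67 at both days) and MRPL50 (0.97 and 0.99), both mitochondrial. Membrane traffic and lysosome genes had medians of 0.26 and 0.19 (4 and 3 of 10 higher in males). In this list SNX2 and SNX24, sorting nexins that lie side by side, had ratios of 0.60 and 0.55 (SE 0.04) and 0.70 and 0.74 (SE 0.09).

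Genes of the extracellular matrix, adhesion and cytoskeleton had medians of 0.28 and 0.24, with 8 and 6 of 17 higher in males. TLN1, the talin that links integrins to actin, gave 48.2, 59.3 and 64.2 FPKM in day 11 females and 63.7, 67 and 70.3 FPKM in day 11 males. Its ratios of 0.19 and 0.21 (SE 0.04; adjusted p = 0.0031 and 0.0013) were small and called at both days. MPDZ, a scaffold of cell junctions, had 0.50 and 0.42 (SE 0.07).

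Cytokine and growth factor genes had medians of 0.30 and 0.33, with 7 of 21 higher in males at each day. NPR2, a natriuretic peptide receptor, gave 25.7, 28.8 and 35.0 FPKM in day 11 females and 39.1, 44.8 and 50.8 FPKM in day 11 males, with ratios of 0.57 and 0.71 (SE 0.08; adjusted p = 8.4e-07 and 5.8e-09). MAP3K1, a kinase upstream of JNK, had 0.37 and 0.33 (SE 0.11), called at day 11 only (adjusted p = 0.0498 and 0.13), and the difference between the days was not called. The day 11 call was lost under 5 alternatives (adjusted p = 0.050 to 0.13), and the day 15 ratio passed with embryo number as a covariate (adjusted p = 0.031). NTRK2, a neurotrophin receptor, had medians of 1.14 FPKM (day 11 females), 1.92 FPKM (day 11 males), 5.96 FPKM (day 15 females) and 10.7 FPKM (day 15 males), a rise of 2.41 on the log2 scale (SE 0.21, adjusted p = 7.5e-13). Its ratios of 0.71 and 0.87 (SE 0.30) passed the test at neither day, and at day 15 they passed with a pseudocount of 1 (adjusted p = 0.022) or embryo number as a covariate (adjusted p = 0.042).

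Immune genes had medians of 0.32 and 0.22 (4 and 3 of 11 higher in males). C7, a terminal complement component that overlaps PRKAA1 and other genes on the opposite strand, had ratios of 0.47 and 0.59 (SE 0.14; adjusted p = 0.044 and 0.0047); the day 11 call was lost without a filter, without scaling and without trend and robust moderation (adjusted p = 0.062, 0.069 and 0.054). ERAP1, which trims peptides for antigen presentation, had 0.63 and 0.66 (SE 0.05). DAB2, an endocytic adaptor also found in macrophages, had 0.34 (adjusted p = 0.016) and -0.03 (adjusted p = 0.97; SE 0.09), and the day 15 value was 0.04 without replicate 83.

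Chromatin and transcription factor genes had medians of 0.49 and 0.50, with 11 of 16 higher in males at each day. NR2F1, an orphan nuclear receptor, had ratios of 0.43 and 0.57 (SE 0.10), PSIP1, a chromatin-binding coactivator, 0.33 and 0.29 (SE 0.06), and MLLT3, a histone-reading subunit of the elongation complex with an overlapping gene on the other strand, 0.12 and 0.07 (SE 0.15), the last not called. Ubiquitin and proteostasis genes had medians of 0.50 and 0.42, with 6 of 12 higher at each day. Of these, ZFAND5 had 0.69 and 0.68 (SE 0.08), and DNAJA1, a co-chaperone that overlaps APTX on the other strand, had 0.31 and 0.05 (SE 0.14), not called. FBXL17, a ubiquitin ligase subunit, had 0.23 and -0.08 (SE 0.09), also not called. Ion and solute transport genes had medians of 0.45 and 0.33, with 5 of 10 higher at each day. In this list TRPM6, a magnesium channel, had 0.56 and 0.74 (SE 0.16), the first lost without a filter or without scaling (adjusted p = 0.051 and 0.068). SLC12A2, a sodium, potassium and chloride cotransporter, had 0.35 and 0.10 (SE 0.14; adjusted p = 0.29 and 0.93). Its day 15 ratio includes replicate 83, the highest day 15 female at 69.5 FPKM (next 45.5 FPKM).

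**Figure D5:**
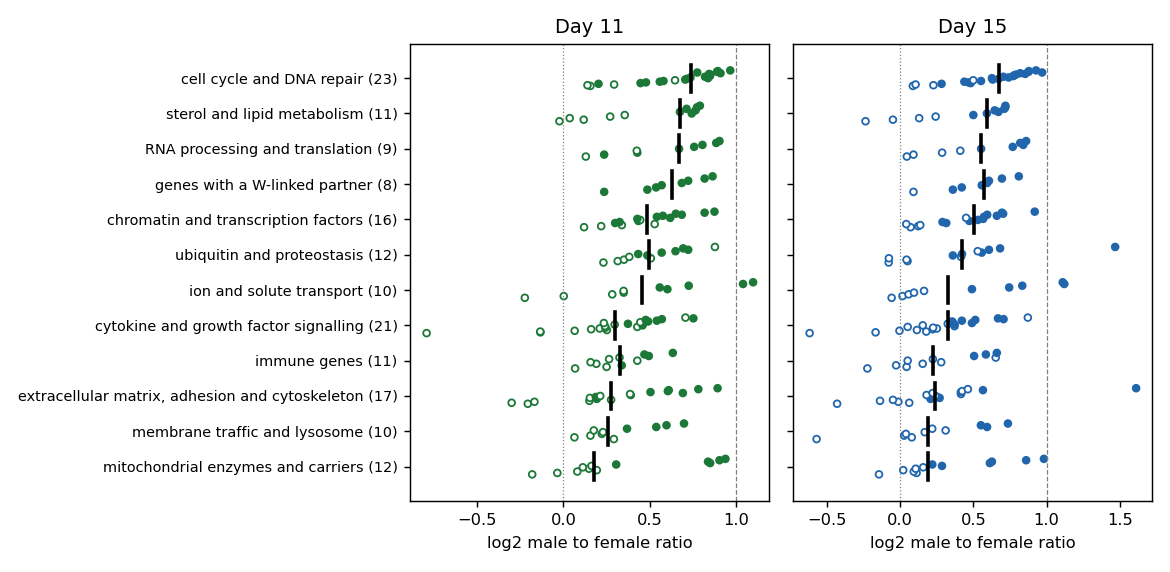
Log2 male to female ratio of the tested Z genes of 12 functional lists at day 11 (left) and day 15 (right); the number of tested genes is in brackets. Filled points passed the limma test (adjusted p below 0.05), open points did not, black bars are list medians, and dotted and dashed lines mark equal and 2-fold. Medians at day 11 run from 0.18 for mitochondrial enzymes and carriers to 0.74 for cell cycle and DNA repair genes.

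Z genes with a partner on the W were higher in males in 8 of 8 tested cases at day 11. At day 15 it was 7 of 8, and the medians were 0.63 and 0.58. The shares of the 551 genes were 57% and 55.9%, and those of all genes tested 2.55% and 2.58%. The genes with a W partner had a median level of 39.4 FPKM. In the highest level class of Z genes, 68.8% and 66.7% were higher in males. Reads of near-identical W copies may be shared with the Z gene in females, so that the ratios of genes with a W partner are uncertain. SPIN1Z (chrZ:43184133-43259306), a reader of histone methylation, gave 61.3, 73.5 and 80.7 FPKM in day 11 females and 116, 133 and 144 FPKM in day 11 males. Its ratios were 0.86 and 0.81 (SE 0.04; adjusted p = 2.2e-20 and 2.2e-19). When SPIN1W was added, females gave 76.1, 88.3 and 95.6 FPKM at day 11 and 77.9, 85.8 and 91.8 FPKM at day 15. The lowest males, at 116 and 118 FPKM, still lay above the highest sums of females.

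SMAD2Z, a transducer of TGF-beta and activin signals, gave 12.3, 15.9 and 18 FPKM in day 11 females and 24.6, 27.4 and 29.4 FPKM in day 11 males, with ratios of 0.82 and 0.70 (SE 0.05). VCP, a segregase of ubiquitinated proteins, had 0.72 and 0.61 (SE 0.05). SUB1, a transcription coactivator, had the lowest ratios of this list, 0.24 (adjusted p = 0.013) and 0.09 (adjusted p = 0.72; SE 0.06). At day 11 it gave 37.8, 42.1 and 45.7 FPKM in females and 43.2, 50.1 and 54.3 FPKM in males, which overlapped.

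Change with incubation day was common on the Z and similar in extent to the genome. Averaged over the sexes, 169 Z genes were higher (background 30.9%) and 151 lower (background 29.3%) at day 15, together 58.1% of 551 against 60.2% of all genes tested. Marker lists moved with day too. The summed level of 6 epithelial markers was 816 to 1063 FPKM in day 11 females and 696 to 1165 FPKM in day 11 males, and 1830 to 2738 and 1433 to 3152 FPKM at day 15. Medians of the leukocyte sums in females and males were 23.7 and 28.8 FPKM at day 11 and 9.23 and 10.5 FPKM at day 15. Those of the liver sums, nearly all APOA1, were 425 and 457 FPKM at day 11 and 127 and 156 FPKM at day 15. Their part in the day changes was not tested. The 169 genes that rose had median ratios of 0.49 at both days. The 151 that fell had 0.62 at day 11 and 0.52 at day 15. Besides NTRK2, large rises named after their values were seen were those of PSTPIP2 (2.12, SE 0.17) and RFESD (1.64, SE 0.12). NANS, a sialic acid synthase, rose by 1.54 (SE 0.09). The largest rise of the 551 was that of HSPB3 (3.71), a gene low in level (mean log2 level -0.60). ADAMTS19, a matrix protease, fell by 2.07 on the log2 scale (SE 0.11) and MELK, a mitotic kinase, fell by 1.72 (SE 0.07).

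Beyond TMOD1, change of the male to female ratio with day was weakly supported for single genes. At an unadjusted p below 0.05, 32 of the 551 genes had a ratio that differed between the days, 5.81% against 3.12% of all genes tested. The median change was -0.03 over the 551 genes and -0.00 over all genes. CDC42SE2, an effector of the small GTPase CDC42 that was singled out after its values were seen, came next. It gave 15.0, 17.0 and 19.2 FPKM in day 11 females and 20.2, 22.2 and 25.3 FPKM in day 11 males, without overlap. At day 15 it gave 14, 15.4 and 17.0 FPKM in females and 13.0, 15.8 and 17.7 FPKM in males. The ratio was 0.38 (SE 0.05) at day 11 and 0.01 at day 15, and the change of -0.37 had an adjusted p of 0.072. It passed the test with a pseudocount of 1 (adjusted p = 0.044) and without scaling (adjusted p = 0.022).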

How the data were processed

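Per the labels' protocols, libraries were made from total RNA with the NEBNext Ultra reagents. HISAT2, HTSeq and the genome build GRCg6a are named in the submitters' processing notes; their versions and the strand setting were not given in the sources used here. The authors deposited FPKM values of 26152 genes in 40 columns, in a table whose name says raw counts; the unit was read from the values, since 100% of low values of genes with a single transcript were whole multiples, within 0.01, of 1 read. The count model chosen for raw counts was therefore replaced by a log-scale test. The 1796 models with XLOC identifiers have no position in the file. All 40 columns were matched by name, where a pair (a day 15 female and a day 15 male) show only the end digits of embryo numbers 102 and 100, and 0 pairs of libraries held identical values. A table of RefSeq names matched 0 identifiers, so symbols and coordinates come from the annotation deposited with the values, and sequences were not used here.

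Libraries were scaled by trimmed means of log ratios without weights (30% and 5% trimmed), transformed as log2(scaled FPKM + 0.1) and fitted with limma 3.58.1 (R 4.3.3, trend and robust moderation) with 1 mean for each of 4 groups. The scale understates changes of low genes. The test took genes reaching 0.5 FPKM in 10 or more libraries, and p-values were adjusted by Benjamini-Hochberg over all 15880, and SEs come from the pooled fit. A second test set each ratio against 2-fold. The script was tested on simulated data. FPKM given per group are as deposited, as lowest, median and highest of 10 libraries. The p-values set a difference between groups, or its distance from 2-fold, against the spread between embryos.

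The genes and lists were chosen with earlier results of these data known. Named genes were the 8 with the largest and 8 with the smallest mean ratio and the 6 most abundant (symbol and mean log2 level of at least 1), genes past the interaction threshold, for each list the 2 most abundant and the extremes, the neighbours of the limits, and TMOD1, PPIC, TMC1 and CHRNA6. Genes named outside this rule were chosen after their values were seen, among them NCBP1, SMN, BDP1, MTAP, CDKN2A, CDKN2B, OSTF1 and CDC42SE2. Of the genes named by this rule, 1 is not reported here. Alternatives covered the pseudocount, filter, scaling, moderation, embryo number and replicate 83.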

Additional observations from a re-analysis of the deposited data

Results flagged for a closer look

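In 240 groups of 10 libraries (58 named genes and the library measures), 21 held a library separated from its nearest neighbour by more than Dixon's 95% limit of 0.466 of the group's range; chance alone flags about 1 group in 20. Of these, 6 were day 15 female replicate 83. It was the highest for CTSV (3334 FPKM, next 260), NREP (186), DAB2 (42.5) and SLC12A2 (69.5), and the lowest for PSIP1 (16.0) and SNX24 (6.94 FPKM). Its sum of liver markers, nearly all APOA1, was 816 FPKM, against at most 191 in the other 9. The part of these markers in these values was not tested.

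Day 15 male replicate 81 was lowest for MAN2A1 (6.95), MAP3K1 (13.6) and GHR (13.5) and highest for LURAP1L (32.7 FPKM). Day 11 female replicate 6 was highest for AQP3 (154) and MRPL17 (111 FPKM). Day 11 male replicate 14 was highest for gga-mir-1583 (23.9) and lowest for PLK2 (54.2 FPKM), and day 15 male replicate 57 was highest for PLK2 (101) and C7 (110 FPKM). Single libraries were highest for gga-mir-1583 (10.7 FPKM, day 15 female replicate 95), NTRK2 (4.30, day 11 male replicate 48), ZFAND5 (26.5, day 15 female replicate 54) and FBXL17 (11.6, day 15 male replicate 86). For the quotient of Z to autosomal median FPKM, day 15 female replicate 70 was highest in its group at 0.634, still below the lowest male (0.816).

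The male to female ratio of TMOD1 was larger at day 15 than at day 11 by 0.72 on the log2 scale (SE 0.12, adjusted p = 0.0045), with 10 of 10 males above every female at each day.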

How the results depend on the processing

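No paired analysis was possible because the groups share no embryo numbers. The alternatives tried kept the median ratio above 0. They kept the counts of Z genes higher in males within 1.5 times of 314 and 308, except in day 11 embryos 2 to 20 alone (9 libraries). These embryos gave 186 (background 1.54%), of which 183 were among the 314. A pseudocount of 1 lowered the medians to 0.41 and 0.39 and raised the counts below 2-fold from 411 and 435 to 507 and 510. With a pseudocount of 0.01 these counts were 394 and 425. Without a filter, which tested 927 Z genes, medians were 0.31 and 0.26, 743 and 775 genes were below 2-fold, and 4 and 6 were higher in females. With embryo number as a covariate 1 was higher in females at day 11. Under the alternatives, genes below 2-fold or higher in females were not counted over all genes tested. The ratio changed with day in 2 genes, TMOD1 and CDC42SE2, with a pseudocount of 1 or without scaling. Signs turned for uncalled day 15 ratios of GHR (0.0053 without scaling, 0.010 with scaling from numbered chromosomes) and DAB2 (0.043 without replicate 83). Of the 117 named gene ratios these were the only 2 that changed sign. Under the alternatives, 13 gene values lost their call and 6 gained one, in MAP3K1, SNORD58, C7, TRPM6, KIF2A, NTRK2 and MCCC2. The median SE was 0.24 in the lowest level class and 0.07 in the highest.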
